A study of Schizosaccharomyces pombe with 4 samples.

Results

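The nuclear genes for the mitochondrial respiratory chain and the ATP synthase were examined across 3 fission yeast knockouts and wild type. Members were the genes of the deposited table named cox, qcr, atp or sdh followed by a number, together with cyt1, cyc1 and rip1, outside the mitochondrial chromosome. This rule found 51 of 5129 genes. Of these, 48 had a mean of at least 1 FPKM (fragments per kilobase, scaled to library size) over the 4 genotypes, as did 4761 genes of the whole table. They comprised 33 subunit genes, cyc1, and 14 genes that encode assembly factors or, for cox24, a mitochondrial ribosomal protein.

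Schizosaccharomyces pombe cells in exponential growth, untreated, were the source of total RNA for directional sequencing libraries. The genotypes were knockouts (KO) of the sfp1, the ifh1 or the fhl1 gene, and wild type, which carries all 3. In budding yeast the proteins of these names regulate ribosomal protein genes, and the series compared gene expression between each knockout and wild type. Ratios given in threes belong to sfp1 KO, ifh1 KO and fhl1 KO over wild type. There was 1 sample per genotype, so no test, standard error or replicate check was possible, and ratios below are descriptions of 4 columns of values. No further allele, background or strain history is given in the labels.

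Respiratory complexes pass electrons from succinate and other donors through ubiquinone (complex II), cytochrome c (complex III) and finally to oxygen (complex IV), and the proton gradient so built drives the ATP synthase (complex V). Fission yeast has no proton-pumping complex I; NADH dehydrogenases of a simpler kind feed the chain in its place. Complexes III, IV and V are assembled from nuclear and mitochondrial gene products, so that their nuclear subunits are made in the cytosol and imported. Cells growing fast on glucose ferment most of it, and in fission yeast the CCAAT-binding Php complex activates respiratory genes. Roles of single genes are given here as known for their counterparts in Saccharomyces cerevisiae.

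The sfp1, ifh1 and fhl1 genes were each near 0 in the knockout named after them, at 0.0818, 0.556 and 0.0509 FPKM, against 261.0, 127.5 and 53.8 FPKM in wild type. Summed FPKM over all genes were between 2766780 and 2813930 in sfp1, ifh1 and fhl1 KO and 3261902 in wild type, and median-of-ratios size factors lay between 0.9891 and 1.0205. Most bounds below 500 steps (99.5% of 24521, within 0.05) were whole multiples of a common step after multiplication by gene length. A step was taken as 1 fragment on an assumed common scale, while the true depth is unknown. The lower and upper bounds deposited with each FPKM, read in steps, give the precision: they lay 32.5% of the midpoint to either side above 1000 steps and 79.3% at 5 to 20 steps. The 48 members held 0.946% of all middle steps in sfp1 KO, 1.02% in ifh1 KO and 0.970% in fhl1 KO, against 0.791% in wild type. Their own sums were 42767, 43584 and 45182 middle steps in sfp1, ifh1 and fhl1 KO and 42966 in wild type, so the sum for all genes differed more than the sum for the members.

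Upstream sequences are shown for 1 subunit gene each of complexes III, IV and V. Each stretch is the 250 bases before the annotated mRNA start, on the gene's own strand and 5′ to 3′, from RefSeq's ASM294v3 assembly, and none overlaps an annotated mRNA. Capitals mark CCAAT or its reverse complement ATTGG, the letters bound by CCAAT-binding factors. The genes are cyt1 (II:2072986-2073235, plus strand), cox5 (III:1357544-1357793, plus) and atp5 (III:2269770-2270019, minus).
cyt1: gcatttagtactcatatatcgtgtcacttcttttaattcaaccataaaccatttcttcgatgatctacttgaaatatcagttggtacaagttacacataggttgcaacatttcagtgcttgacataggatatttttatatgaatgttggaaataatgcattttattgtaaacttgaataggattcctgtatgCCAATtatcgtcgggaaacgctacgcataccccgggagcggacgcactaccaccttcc
cox5: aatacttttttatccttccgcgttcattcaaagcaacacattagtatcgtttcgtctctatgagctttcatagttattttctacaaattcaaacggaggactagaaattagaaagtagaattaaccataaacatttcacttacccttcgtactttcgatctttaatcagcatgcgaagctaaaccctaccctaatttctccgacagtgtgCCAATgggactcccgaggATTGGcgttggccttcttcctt
atp5: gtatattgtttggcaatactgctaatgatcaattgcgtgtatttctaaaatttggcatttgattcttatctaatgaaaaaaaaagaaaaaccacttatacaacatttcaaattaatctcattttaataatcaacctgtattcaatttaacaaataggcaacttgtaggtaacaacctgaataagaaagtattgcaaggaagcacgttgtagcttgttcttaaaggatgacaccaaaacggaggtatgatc

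In cyt1 the match begins 58 bases before the mRNA start; cox5 holds 2 matches and atp5 none. CCAAT was found on either strand in 51.0% of the 51 members' windows and in 57.6% of the 33 subunit genes' windows, against 35.5% of 5155 windows of all genes with an mRNA. For the 13 ATP synthase subunits the share was 46.2%. HomolD, a promoter element of fission yeast ribosomal protein genes searched as CAGTCACA on both strands, occurred in 0 of the 51 windows, while 62.4% of 141 ribosomal protein genes and 2.60% of all genes had it. The core of a neighbouring element, HomolE (CCCTACCC, both strands), was in 1 member window (1.96%), that of cox5. It was in 1.53% of the windows of all genes, close to the members' share, and in 34.8% of ribosomal protein genes. No motif is contained in another. These shares describe letters in windows of 1 length and do not show binding.

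Levels set subunits apart from assembly factors. The 33 subunit genes had median levels of 496 FPKM in sfp1 KO, 452 FPKM in ifh1 KO, 486 FPKM in fhl1 KO and 415 FPKM in wild type. For the 14 other genes besides cyc1 the medians were 59.9, 56.3 and 57.6 FPKM in the same order of knockouts and 54.0 FPKM in wild type. All genes had medians of 70.9, 71.3, 74.1 FPKM in sfp1, ifh1 and fhl1 KO and 71.1 FPKM in wild type, so by FPKM the assembly factors stood somewhat below a typical gene and the subunits well above it. By midpoints of the bounds the subunits' medians were lower, at 214, 207 and 206 in sfp1, ifh1 and fhl1 KO and 185 in wild type, because FPKM of short genes run far above their bounds. The 14 other genes had midpoint medians of 35.2, 28.5 and 27.8 in sfp1, ifh1 and fhl1 KO and 26.1 in wild type, and all genes had 58.4, 58.7 and 58.8 in sfp1, ifh1 and fhl1 KO and 57.6 in wild type. The highest member was atp2, the catalytic beta subunit of the ATP synthase, with 2072, 2229 and 2236 FPKM in sfp1, ifh1 and fhl1 KO and 2049 FPKM in wild type. Its partner in the catalytic ring, atp1 (alpha subunit), had 729, 721 and 790 FPKM in sfp1, ifh1 and fhl1 KO and 760 FPKM in wild type. The catalytic ring holds alpha and beta in equal number, yet the level of the alpha gene was well below that of the beta gene in every genotype.

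**Figure D1:**
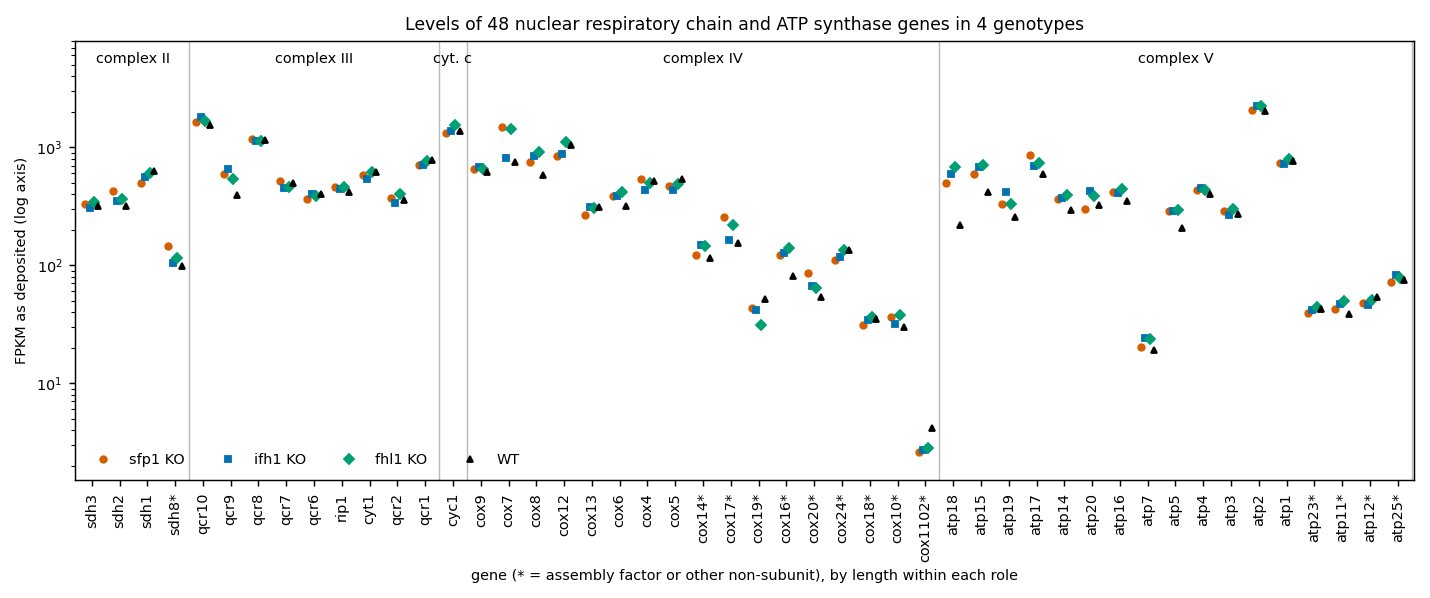
Deposited FPKM (log axis) of the 48 members, by complex and gene, with a marker for each of sfp1, ifh1 and fhl1 KO and wild type. Subunit genes sit mostly above 200 FPKM, while genes with an asterisk (assembly factors and cox24) and atp7 sit lower; for most genes the 4 markers lie close together, and atp18 is the widest gap.

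An exception among the subunits was atp7, which encodes subunit d of the peripheral stalk. It was listed at 20.3 FPKM in sfp1 KO, 24.4 FPKM in ifh1 KO, 23.5 FPKM in fhl1 KO and 19.1 FPKM in wild type. Every other ATP synthase subunit gene had at least 207.5 FPKM in each genotype. The reference annotation places an antisense long noncoding RNA, prl25, over 399 of the 528 bases of atp7. Such overlap is not particular to atp7. Antisense long noncoding RNAs also cover 474 of the 504 bases of atp16 and all 357 of atp20, at 353 and 322 FPKM in wild type. Whether overlap enters the level of atp7 was not tested, since no source used here says whether strand was counted.

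Short gene models need their own reading. FPKM divided by the midpoint of the bounds had a median of 15.3, 13.9 and 16.03 in sfp1, ifh1 and fhl1 KO and 14.5 in wild type over the 13 members under 300 bases. For the 18 members of at least 600 bases the median was 1.14, 1.13 and 1.16 in sfp1, ifh1 and fhl1 KO and 1.15 in wild type. The factor depends on gene length and differs between genotypes, so it touches levels most but also the ratios of single short genes. For atp18 it was 38.4, 28.4 and 46.0 in sfp1, ifh1 and fhl1 KO and 30.4 in wild type. Among all 210 genes under 300 bases the median log2 ratio to wild type was 0.05, 0.00 and 0.32 by FPKM in sfp1, ifh1 and fhl1 KO, and 0.12, 0.15 and 0.11 by midpoints. The 13 short members had medians of 0.38, 0.22 and 0.37 by FPKM and 0.28, 0.48 and 0.23 by midpoints. Short genes as a class thus stood near the short members by FPKM in fhl1 KO and below them in sfp1 and ifh1 KO. For the short genes named below, midpoint ratios are given as well, in full or where the sign or the call differs.

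**Figure D2:**
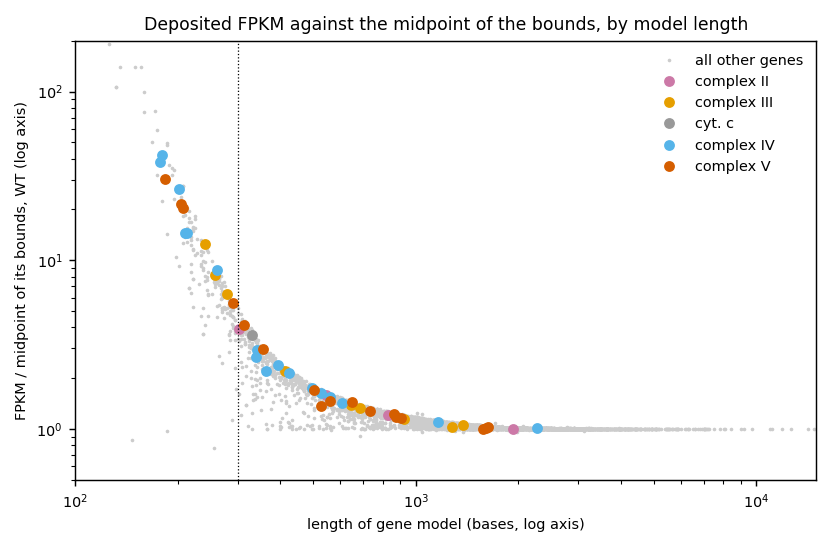
FPKM divided by the midpoint of its bounds in wild type (log axis) against the length of the gene model in bases (log axis), with members in the colour of their complex and other genes in grey. The factor is near 1 for long genes and climbs steeply to the left of the dotted line at 300 bases, where 13 members lie.

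Few members differed from wild type by much. The limit for a call was 2-fold, a log2 ratio of FPKM + 1 of at least 1 either way. In sfp1 KO 1 of 48 members was past it and higher (background over all genes 3.11%) and 0 were lower (background 2.5%). The same counts were found in ifh1 KO, with backgrounds of 1.6% higher and 2.84% lower, and in fhl1 KO, with backgrounds of 2.58% higher and 0.903% lower. The gene was atp18 each time. A share of 1 in 48 is close to the background and is no result about the members as a set.

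By a stricter reading, bounds that do not overlap between knockout and wild type, 0 members were called in any knockout in either direction. The background was 1.13% higher and 1.43% lower in sfp1 KO, 0.336% and 1.34% in ifh1 KO, and 0.483% and 0.315% in fhl1 KO. At these shares, 0 of 48 is close to the background too. Counts of genes lower include the deleted genes themselves.

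The members' median log2 ratio was 0.08 in sfp1 KO, 0.10 in ifh1 KO and 0.15 in fhl1 KO, against −0.01, −0.01 and 0.02 over all genes. Above 0 were 31, 27 and 36 of the 48 (64.6, 56.25 and 75.0%), against 48.5, 47.6 and 52.9% of all genes. By midpoints the members' medians were 0.12, 0.13 and 0.08, with 32, 34 and 33 above 0. Each of the all-gene medians was then 0.01, with 50.6, 51.2 and 50.8% of all genes above 0. Within 0.5 of 0 on the log2 scale lay 38, 42 and 41 members in sfp1, ifh1 and fhl1 KO (79.2, 87.5 and 85.4%), against 76.0, 82.2 and 86.6% of all genes. The spread of the members was thus similar to that of genes in general. Leaving out members under 300 bases brought the ifh1 median to −0.0008 by FPKM, on the other side of 0. By midpoints the same genes had a median of 0.09. The knockouts share the same wild-type sample, so that any deviation of that sample enters all 3 ratios alike.

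**Figure D3:**
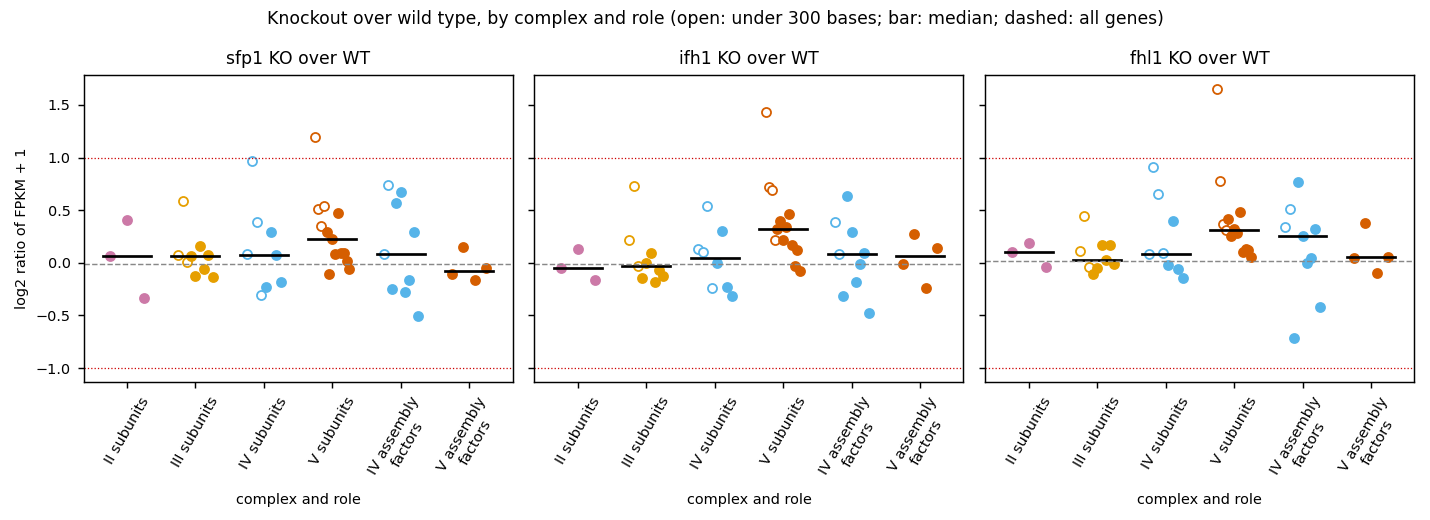
Log2 ratio of FPKM + 1 for each knockout over wild type, by complex and role, with open circles for genes under 300 bases, a bar for each group's median, a dashed line for the median of all genes and dotted lines at the 2-fold limit. ATP synthase subunits have the highest subunit median in each panel (0.23, 0.32 and 0.31), and atp18 alone lies beyond the limit.

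The ATP synthase subunits had the highest medians of the 4 complexes' subunits. Over 13 genes they were 0.23 in sfp1 KO, 0.32 in ifh1 KO and 0.31 in fhl1 KO. Above 0 were 11, 11 and 13 of them, against 48.5, 47.6 and 52.9% of all genes. By midpoints the medians were 0.27, 0.47 and 0.22. Each of these medians is well inside the 2-fold limit, and no test of the group was possible. For the 9 subunits of at least 300 bases the medians were 0.09, 0.21 and 0.26, and for the 8 with at least 100 steps in every genotype, a limit chosen after their values were seen, they were 0.09, 0.19 and 0.20. The group's median was thus lower without its short genes, most of all in sfp1 KO.

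Within the enzyme, the 5 genes of the catalytic head and central stalk (atp1, atp2, atp3, atp15, atp16) had medians of 0.09, 0.12 and 0.13 in sfp1, ifh1 and fhl1 KO. The 8 genes of the peripheral stalk and membrane part had medians of 0.32, 0.37 and 0.34, with 7, 8 and 8 above 0. This division by role also divides the genes by length, since 3 of the 4 shortest subunit genes belong to the membrane part. The gene atp5 encodes OSCP, which joins the peripheral stalk to the catalytic head, and at 651 bases it is not among the short genes. It had 288.3, 287.2 and 291.3 FPKM in sfp1, ifh1 and fhl1 KO and 207.5 FPKM in wild type, giving log2 ratios of 0.47, 0.47 and 0.49. Its 3 knockout values lay within a few FPKM of each other and above wild type. In steps, its bounds were 378 to 795, 381 to 800 and 369 to 776 in sfp1, ifh1 and fhl1 KO and 264 to 520 in wild type, which overlap.

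The gene past the limit, atp18 (SPAC23C4.11), encodes the small membrane subunit i/j. Its coding sequence is printed because its length decides how it can be read: 183 bases in 3 exons (I:1047316-1047591, plus strand), with the middle exon in capitals.
atp18: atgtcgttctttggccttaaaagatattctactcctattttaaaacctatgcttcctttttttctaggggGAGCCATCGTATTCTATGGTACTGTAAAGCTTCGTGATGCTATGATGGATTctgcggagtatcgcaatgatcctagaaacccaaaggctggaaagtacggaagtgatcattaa

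Its level was 497.9 FPKM in sfp1 KO, 589.5 FPKM in ifh1 KO, 686.5 FPKM in fhl1 KO and 217.3 FPKM in wild type. All 3 knockouts were higher than wild type, with log2 ratios of 1.19, 1.44 and 1.66. The bounds behind these values held few fragments: 2 to 18 steps in sfp1 KO, 3 to 29 in ifh1 KO, 3 to 20 in fhl1 KO and 0 to 11 in wild type. These ranges overlap, and the wild-type lower bound is 0. By midpoints the log2 ratios were 0.78, 1.42 and 0.97, so ifh1 KO alone kept the gene past 2-fold. An annotated antisense long noncoding RNA covers all 183 coding bases, and its part in the values was not tested.

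**Figure D4:**
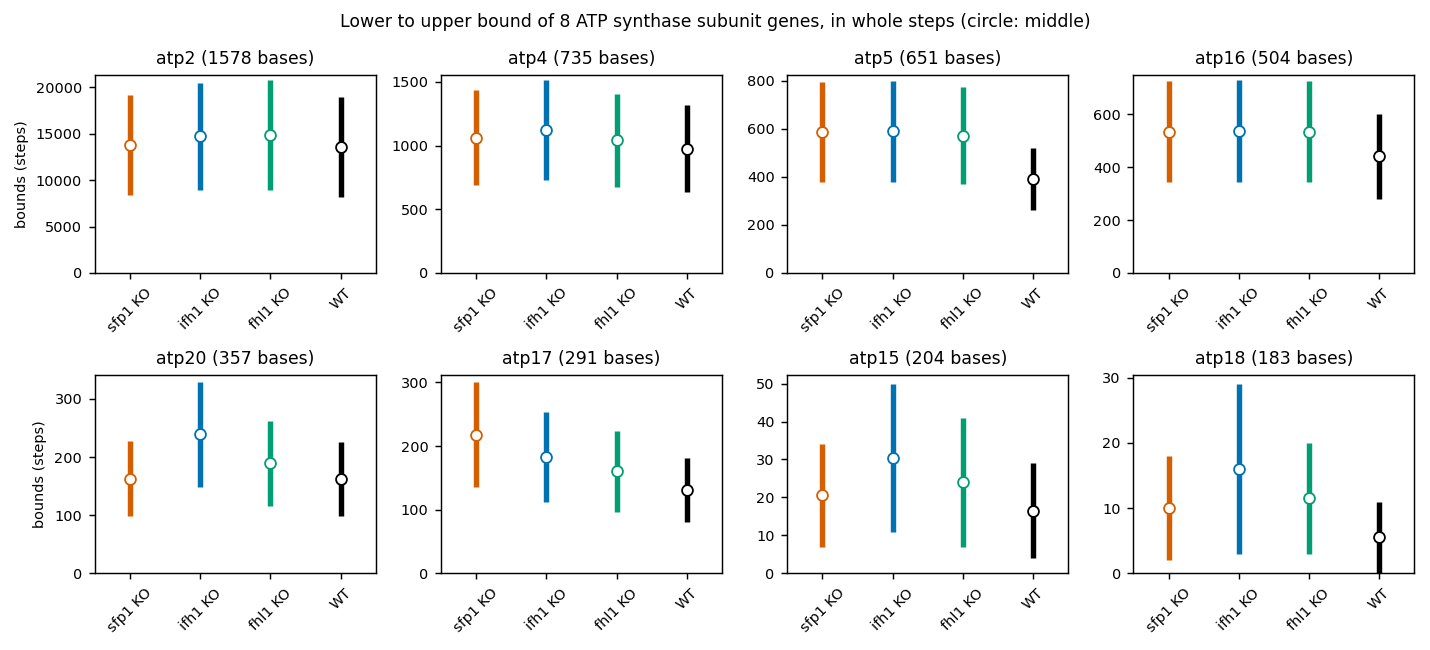
Lower to upper bound of 8 ATP synthase subunit genes in whole steps (linear axes from 0), with a circle at the middle, for sfp1, ifh1 and fhl1 KO and wild type. The knockout bars overlap the wild-type bar in all 8 panels; for atp5 the 3 knockout bars sit higher by similar amounts, while atp18 rests on at most 29 steps.

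Other short ATP synthase genes also stood above wild type without passing the limit by FPKM. The epsilon subunit gene atp15 had 591, 685 and 710 FPKM in sfp1, ifh1 and fhl1 KO and 415 FPKM in wild type, with log2 ratios of 0.51, 0.72 and 0.77 (midpoints 0.30, 0.85 and 0.52). For atp19, subunit k, the log2 ratios were 0.35, 0.69 and 0.37, and by midpoints 0.28, 1.01 and 0.06. By midpoints atp19 was thus past 2-fold in ifh1 KO. Subunit f, atp17, is longer at 291 bases and rests on more fragments. It had 866, 692 and 740 FPKM in sfp1, ifh1 and fhl1 KO and 596 FPKM in wild type, with log2 ratios of 0.54, 0.21 and 0.31 (midpoints 0.73, 0.48 and 0.30). Its bounds of 135 to 301 steps in sfp1 KO overlapped those of 80 to 181 steps in wild type.

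The remaining subunits of the enzyme were all within the limit. The lowest in sfp1 KO was atp20, subunit g, with 299.9 FPKM there, 425.2 FPKM in ifh1 KO, 385.5 FPKM in fhl1 KO and 322.1 FPKM in wild type (log2 −0.10, 0.40 and 0.26). By midpoints the ratio of atp20 in sfp1 KO was 0.004. The lowest in the other knockouts was atp1, at −0.06, −0.08 and 0.06. From atp3, atp4, atp7, atp14 and atp16, ratios ran from −0.03 (atp3 in ifh1 KO) to 0.42 (atp14 in fhl1 KO). The 4 measured assembly factors had medians of −0.08, 0.07 and 0.05. Of these, atp11 and atp12 encode chaperones for the beta and alpha subunits. The highest ratio was 0.38 for atp11 in fhl1 KO (50.1 FPKM there, 42.6 and 46.5 FPKM in sfp1 and ifh1 KO and 38.3 FPKM in wild type). The lowest was −0.24 for atp12 in ifh1 KO (45.7 FPKM there, 48.2 and 50.6 FPKM in sfp1 and fhl1 KO and 54.2 FPKM in wild type). A second protein-coding gene, SPAC9.11, overlaps 725 of the 876 coding bases of atp12 on the opposite strand, and its own log2 ratios were −0.11, −0.20 and −0.23.

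Complex IV, cytochrome c oxidase, had 8 subunit genes with medians of 0.08, 0.05 and 0.09 in sfp1, ifh1 and fhl1 KO. Its largest ratios belonged to cox7 (SPBC2F12.17), a small membrane subunit of 180 coding bases in 3 exons (II:1715140-1715436, minus strand). The sequence is shown for the same reason as that of atp18, again with the middle exon in capitals.
cox7: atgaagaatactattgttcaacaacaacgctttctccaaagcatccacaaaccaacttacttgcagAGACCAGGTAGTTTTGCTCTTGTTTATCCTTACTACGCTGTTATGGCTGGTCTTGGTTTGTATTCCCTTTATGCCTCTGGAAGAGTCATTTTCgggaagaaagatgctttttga

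The gene had 1475 FPKM in sfp1 KO, 807 FPKM in ifh1 KO, 1420.2 FPKM in fhl1 KO and 754 FPKM in wild type. The sfp1 and fhl1 knockouts were high and close to each other, and ifh1 KO lay near wild type. Log2 ratios were 0.97, 0.10 and 0.91, just inside the limit for the first and last, and 0.54, 0.14 and 0.64 by midpoints. The bounds were 7 to 33, 4 to 26 and 7 to 36 steps in sfp1, ifh1 and fhl1 KO and 3 to 24 steps in wild type, so all of them overlap. The bounds of the knockouts thus overlap each other as well, while each FPKM value of cox7 lies far above its own bounds.

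Among the other subunits of complex IV, cox8 had the highest ratio in ifh1 KO, with 753, 837 and 911 FPKM in sfp1, ifh1 and fhl1 KO and 577 FPKM in wild type (log2 0.38, 0.54 and 0.66, midpoints 0.27, 0.87 and 0.45). All but 1 of its 201 coding bases lie under the antisense gene mvd1, whose log2 ratios were −0.17, −0.58 and −0.30. The lowest were cox12 in sfp1 KO, at −0.31, and cox5 in ifh1 and fhl1 KO, at −0.31 and −0.14. For cox12 the values were 841, 884 and 1109 FPKM in sfp1, ifh1 and fhl1 KO and 1041 FPKM in wild type. By midpoints its ratio in ifh1 KO was 0.09, against −0.24 by FPKM, a change of sign. The ratios of cox9 changed sign as well: by midpoints they were −0.06 in sfp1 KO and −0.18 in fhl1 KO, where FPKM gave 0.08 for each. For cox9 the levels were 654, 679 and 654 FPKM in sfp1, ifh1 and fhl1 KO and 619 FPKM in wild type, with no bounds above 22 steps. Of the longer subunit genes, cox6 was above wild type in each knockout (0.29, 0.30 and 0.40), with 385, 389 and 414 FPKM in sfp1, ifh1 and fhl1 KO and 315 FPKM in wild type. The level of cox5 was below wild type in each, with 473, 433 and 486 FPKM in sfp1, ifh1 and fhl1 KO and 538 FPKM in wild type.

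Genes for building complex IV had ratios of both signs. The medians of 9 genes were 0.08, 0.09 and 0.26 in sfp1, ifh1 and fhl1 KO, and 5, 8 and 6 of them lay within 0.5 of 0. The assembly factor gene cox16 was above wild type in each knockout, with 120.9, 126.3 and 139.0 FPKM against 81.0 FPKM in wild type (log2 0.57, 0.63 and 0.77). Its bounds overlap, at 30 to 96, 34 to 92 and 32 to 102 steps in sfp1, ifh1 and fhl1 KO and 17 to 63 steps in wild type. The copper chaperone gene cox17 had 257.1, 162.8 and 218.9 FPKM in sfp1, ifh1 and fhl1 KO and 153.4 FPKM in wild type (0.74, 0.09 and 0.51, midpoints 0.70, 0.13 and 0.37). By contrast, cox19, which encodes another protein of copper handling, had 43.7, 41.6 and 31.3 FPKM in sfp1, ifh1 and fhl1 KO and 52.1 FPKM in wild type (−0.25, −0.32 and −0.72). Its bounds of 4 to 33 steps in fhl1 KO overlapped those of 10 to 46 steps in wild type. The remaining factors cox10, cox14, cox18 and cox20 ranged from −0.16 (cox18 in sfp1 KO) to 0.67 (cox20 in sfp1 KO). By midpoints the ratio of cox18 in sfp1 KO was 0.04. The ribosomal protein gene cox24 was at −0.28, −0.19 and −0.00.

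A pair of near-identical genes, cox1101 and cox1102, encode Cox11, a copper chaperone, fused to a mitochondrial ribosome factor. Each has 2262 coding bases, of which 3 differ (99.9% identity). Coding positions 1640 to 1679, counted from the A of the start codon, hold all of the differences, which are in capitals.
cox1101: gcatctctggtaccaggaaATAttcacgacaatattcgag
cox1102: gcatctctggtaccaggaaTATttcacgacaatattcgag

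The copy cox1101 was listed at 0 in all 4 genotypes, while cox1102 had 2.61, 2.70 and 2.83 FPKM in sfp1, ifh1 and fhl1 KO and 4.14 FPKM in wild type. The log2 ratios of cox1102 were −0.51, −0.48 and −0.42, the lowest of complex IV in sfp1 and ifh1 KO. With so few differing bases, nearly every read matches both copies. No source used here says how such reads were shared, so both genes' values are uncertain and the 0 of cox1101 is only how it is listed.

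**Figure D5:**
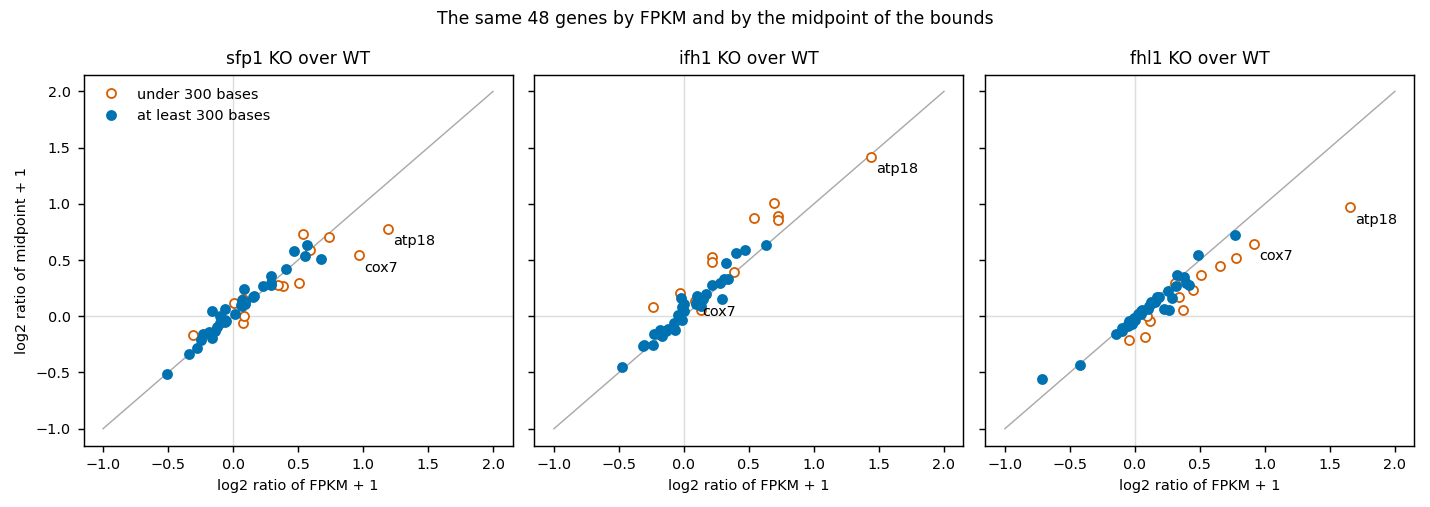
For each knockout over wild type, the log2 ratio of midpoint + 1 against the log2 ratio of FPKM + 1 of the 48 members, with open circles for genes under 300 bases and the line of equal values. Most longer genes lie close to the line. In sfp1 and fhl1 KO atp18 and cox7 fall below it, and in ifh1 KO several short genes lie above it.

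Complex III, the cytochrome bc1 complex, lay close to wild type. The medians of its 9 subunit genes were 0.07, −0.03 and 0.02 in sfp1, ifh1 and fhl1 KO. The core subunit genes qcr1 and qcr2, the Rieske protein gene rip1 and the cytochrome c1 gene cyt1 ranged from −0.18 (cyt1 in ifh1 KO) to 0.17 (qcr2 in fhl1 KO). For cyt1 the levels were 587, 538 and 621 FPKM in sfp1, ifh1 and fhl1 KO and 611 FPKM in wild type, and for qcr1 they were 702, 710 and 768 FPKM in sfp1, ifh1 and fhl1 KO and 773 FPKM in wild type. The highest ratios in every knockout belonged to qcr9, a small subunit. It had 597, 656 and 539 FPKM in sfp1, ifh1 and fhl1 KO and 396 FPKM in wild type, with log2 ratios of 0.59, 0.73 and 0.44 (midpoints 0.59, 0.90 and 0.23). The deposited model of qcr9 has 258 bases, whereas the reference coding sequence has 204, and the antisense gene mcm3 overlaps 115 bases of it. The bounds of qcr9 in ifh1 KO, 56 to 143 steps, overlapped those in wild type, 25 to 81 steps.

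The highest level in complex III belonged to qcr10, with 1633, 1802 and 1679 FPKM in sfp1, ifh1 and fhl1 KO and 1549 FPKM in wild type. Its log2 ratios of 0.08, 0.22 and 0.12 became 0.16, 0.52 and −0.04 by midpoints. For qcr8 the FPKM ratios of 0.01, −0.03 and −0.04 became 0.11, 0.21 and −0.21; its levels were 1169, 1139 and 1126 FPKM in sfp1, ifh1 and fhl1 KO and 1160 FPKM in wild type. The signs of these small ratios depend on which deposited value is read. The lowest in fhl1 KO was qcr7, at −0.10, with 521, 452 and 464 FPKM in sfp1, ifh1 and fhl1 KO and 498 FPKM in wild type, and qcr6 lay between −0.13 and −0.00. All of rip1 (log2 0.16, 0.10 and 0.16) lies under the antisense gene ppa2, whose ratios were 0.18, −0.15 and 0.04. Cytochrome c itself, cyc1, which carries electrons between complexes III and IV, had 1330, 1365 and 1545 FPKM in sfp1, ifh1 and fhl1 KO and 1385 FPKM in wild type (−0.06, −0.02 and 0.16). By midpoints the ratios of cyc1 were 0.06, 0.16 and 0.13, so the signs in sfp1 and ifh1 KO differed.

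In complex II, succinate dehydrogenase, the 3 subunit genes differed in direction, and none passed the limit. The iron-sulphur subunit gene sdh2 had 421.6, 349.0 and 362.3 FPKM in sfp1, ifh1 and fhl1 KO and 318.3 FPKM in wild type (log2 0.40, 0.13 and 0.19). The flavoprotein gene sdh1 had 496, 558 and 609 FPKM in sfp1, ifh1 and fhl1 KO and 627 FPKM in wild type (−0.34, −0.17 and −0.04). The membrane anchor gene sdh3 lay near wild type, with 330.5, 306.7 and 340.8 FPKM in sfp1, ifh1 and fhl1 KO and 317.0 FPKM in wild type (0.06, −0.05 and 0.10). Thus sdh2 was above wild type and sdh1 below it in each knockout, with the widest gap in sfp1 KO. Bounds of sdh1 were 2689 to 5362 steps in sfp1 KO and 3338 to 6823 steps in wild type, and those of sdh2 were 804 to 1665 steps in sfp1 KO and 600 to 1240 steps in wild type, so both pairs overlap. The assembly factor gene sdh8 had 144.4, 104.9 and 114.2 FPKM in sfp1, ifh1 and fhl1 KO and 97.8 FPKM in wild type (0.56, 0.10 and 0.22).

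Besides cox1101, the members below the level minimum were sdh7 and atp10. An assembly factor gene of complex II, sdh7, was listed at 0 in all 4 genotypes. Its whole reference coding region of 348 bases lies under the antisense gene pkr1, at 125.2, 98.3 and 96.6 FPKM in sfp1, ifh1 and fhl1 KO and 136.5 FPKM in wild type. The deposited locus of sdh7 spans II:1999898-2000774, whereas the reference coding region spans II:2000312-2000774. The gene for the assembly factor atp10 had 0.161, 0.537 and 0.377 FPKM in sfp1, ifh1 and fhl1 KO and 0.354 FPKM in wild type, and all its 804 bases lie under the antisense gene gos1. The 6 mitochondrial genes of the same names were at 0 in all genotypes, as were 215 genes in all, so the mitochondrially encoded subunits cannot be set beside the nuclear ones. A few proteins of the same complexes stand in the table under other names. The second membrane anchor of complex II, tim18, had log2 ratios of 0.07, 0.20 and 0.30. Subunit e of the ATP synthase, tim11, was at −0.34, 0.11 and 0.16 by FPKM and at −0.27, 0.38 and −0.01 by midpoints. An assembly factor of complex II, SPAC664.12c, was past 2-fold in sfp1 and ifh1 KO, with 32.9, 27.1 and 9.59 FPKM in sfp1, ifh1 and fhl1 KO and 12.3 FPKM in wild type, but no upper bound exceeded 12 steps. Its log2 ratios were 1.35, 1.08 and −0.33 by FPKM and 0.81, 0.70 and 0.17 by midpoints, so neither call held by midpoints and the sign in fhl1 KO differed.

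Between pairs of knockouts, 0 of the 48 members were past 2-fold in either direction. The background over all genes was 4.54% for sfp1 KO over ifh1 KO, 3.11% for sfp1 KO over fhl1 KO and 1.81% for ifh1 KO over fhl1 KO, so that a count of 0 is close to it and is no result about the members. The members' median log2 ratio was −0.03 for sfp1 KO over ifh1 KO, −0.08 for sfp1 over fhl1, and −0.09 for ifh1 over fhl1. Over all genes these medians were 0.03, −0.03 and −0.05. The widest single ratio was 0.87, for cox7 in sfp1 KO over ifh1 KO.

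Neighbouring pathways were read from lists of named genes. Genes of the citric acid cycle, which supplies succinate and NADH, were listed together with those of pyruvate dehydrogenase (pda1, pdb1, lat1 and pdx1). Over these 16 genes the medians were 0.03, −0.27 and −0.10 in sfp1, ifh1 and fhl1 KO. In ifh1 KO 14 of the 16 were below 0, as were 2481 of all 4761 genes, and none of the 16 was past 2-fold. The lowest were lat1 (pyruvate dehydrogenase E2) at −0.72 and mdh1 (mitochondrial malate dehydrogenase) at −0.68. Electron donors to ubiquinone (5 genes) had medians of −0.05, −0.01 and 0.22. Of these, 1 was past the limit: ura3, the dihydroorotate dehydrogenase gene, fell to 289.9 FPKM in sfp1 KO, against 792.5 FPKM in wild type (log2 −1.45), with bounds of 1033 to 2008 steps in sfp1 KO and 2744 to 6132 steps in wild type. Another donor, the NADH dehydrogenase gene nde2, had 871, 832 and 753 FPKM in sfp1, ifh1 and fhl1 KO and 582 FPKM in wild type, with log2 ratios of 0.58, 0.52 and 0.37.

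Ubiquinone synthesis genes (10 measured) had medians of 0.21, −0.08 and −0.01, and haem synthesis genes (7) of −0.18, −0.29 and −0.15; 0 of either list passed the limit. Among 7 genes for the assembly of complex III and cytochrome c, medians were 0.05, −0.10 and −0.06. The gene mzm1, whose product stabilises the Rieske protein, fell to 42.5 FPKM in sfp1 KO and had 48.3 and 54.6 FPKM in ifh1 and fhl1 KO, against 94.3 FPKM in wild type (−1.13, −0.95 and −0.78, midpoints −0.94, −0.60 and −0.78). By midpoints mzm1 was inside the limit. The level of mzm1 was lower in all 3 knockouts, though bounds of 4 to 27 steps in sfp1 KO and 11 to 51 steps in wild type overlap. Complex IV assembly genes without a cox name (14) had medians of 0.07, 0.02 and 0.13. Of these, coa4 rose past the limit in ifh1 and fhl1 KO, with 149.5, 213.9 and 230.9 FPKM in sfp1, ifh1 and fhl1 KO and 98.1 FPKM in wild type, and coa3 in sfp1 KO, with 208.1 FPKM against 100.2 FPKM in wild type. Both genes are under 300 bases and their bounds overlap those of wild type. By midpoints coa4 had log2 ratios of 0.43, 1.06 and 0.73, past the limit in ifh1 KO only, and coa3 had 0.75 in sfp1 KO, inside it. The gene pet117 was listed at 0 in ifh1 KO and in wild type, so no fold is given for it.

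Of 10 genes for the CCAAT-binding Php proteins and for glucose repression, medians were −0.09, −0.19 and 0.01, and 0 passed the limit. The Php4 subunit gene, whose product turns the complex into a repressor when iron is scarce, had 114.2, 93.7 and 97.3 FPKM in sfp1, ifh1 and fhl1 KO and 155.8 FPKM in wild type (−0.44, −0.73 and −0.67). Each knockout lay below wild type for php4. The DNA-binding subunit genes php2, php3 and php5 ranged from −0.39 to 0.11. The carriers of adenine nucleotides and the ATP synthase inhibitor (3 genes with tim11) had medians of 0.05, −0.25 and 0.16, with 0 past the limit. The inhibitor gene is inh1, at 435.2, 210.3 and 353.9 FPKM in sfp1, ifh1 and fhl1 KO and 297.6 FPKM in wild type (0.55, −0.50 and 0.25, midpoints 0.55, −0.29 and 0.21).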

How the data were processed

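Total RNA of 4 fission yeast genotypes, 1 sample each, was sequenced from directional libraries, per the labels' protocols. The authors deposited 1 FPKM value per gene and genotype, together with lower and upper bounds. The submitters' processing notes name Cufflinks 2.1.1 and TopHat2 2.0.9. What each tool did, the build, the annotation and the strand setting, not given in the sources used here, could not be checked. The table's name mentions 2 replicates, and how these were combined is likewise not stated. Columns named for crf1 were read as ifh1 KO, as RefSeq lists crf1 as another name of that gene, which was near 0 there.

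Ratios were log2(FPKM + 1), knockout over wild type, without further scaling, which understates changes of low genes. The minimum for a gene was 1 FPKM on average over the genotypes. A call meant a 2-fold ratio. The ratio calculation was tested on simulated data. Midpoints are the mean of both bounds; bounds were read in steps by multiplying with gene length. Bounds and FPKM come from 1 column per genotype. Whether the bounds include variation between replicates is not stated, so no replicate error was read from them. Overlaps, coding sequences and upstream windows came from RefSeq's ASM294v3. Members named with values were, in each complex, the highest and lowest ratio in each knockout, the highest wild-type level, any past 2-fold or listed at 0, and short genes whose sign differs by midpoints; others are given by range, or named after their values were seen. Members and lists were chosen with earlier results of these data known. Python 3.11.15, pandas 2.3.3, numpy 2.4.6 and matplotlib 3.10.9 were used. Alternatives covered the pseudocount, the minimum, scaling, midpoints, gene length and bounds.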

Additional observations from a re-analysis of the deposited data

How the results depend on the processing

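No paired analysis was possible because each genotype has 1 sample, and for the same reason no replicate could be left out. The members' median log2 ratio moved by no more than 0.1 under 28 of 33 combinations of alternative and knockout. It was 0.22 in the sfp1 and 0.23 in ifh1 KO after quantile normalization. Scaling by the sum outside ribosomal protein genes gave 0.28, 0.40 and 0.28 in sfp1, ifh1 and fhl1 KO. That scaling also moved the median of all genes to 0.19, 0.28 and 0.15, and relative to this shift the members' medians were 0.09, 0.12 and 0.13. Without scaling the members' medians relative to all genes were 0.09, 0.11 and 0.13, and quantile normalization raised them to 0.22, 0.22 and 0.23. Scaling by the sum outside ribosomal protein genes changed the split of all genes past 2-fold, higher against lower. In sfp1 KO the split went to 209 and 57 from 148 and 119, and in ifh1 KO to 153 and 55 from 76 and 135. Quantile normalization gave 68 and 64 in ifh1 KO. Members at least 2-fold higher, 1 in each knockout, became 2 in sfp1 KO under quantile normalization, and 2, 3 and 2 in sfp1, ifh1 and fhl1 KO under the sum outside ribosomal protein genes. They became 0, 2 and 0 by midpoints, and 0 in each knockout among members of at least 300 bases and by bounds apart. Of all 4761 genes, 131 were at least 2-fold higher in sfp1 KO under quantile normalization. Under the sum outside ribosomal protein genes 209, 153 and 147 were, and by midpoints 117, 67 and 80. Such small member counts are no result about the members as a set. Members at least 2-fold lower stayed at 0 under every alternative run. The median of the 13 ATP synthase subunits ran from 0.09 to 0.43, from 0.19 to 0.62 and from 0.20 to 0.44 in sfp1, ifh1 and fhl1 KO. Of 225 medians by complex under alternatives 48 moved by over 0.1, and 19 medians changed sign, 1 of them the ifh1 median of all members at −0.0008, each from within 0.10 of 0. Of 1149 ratios of single members 8 changed their side of the limit: atp18 by midpoints in sfp1 and fhl1 KO no longer passed it, and cox7, atp15, qcr9 and atp19 passed it in 6 cases. Why the scalings differ was not tested. Few steps limit short genes such as atp18, of which no upper bound exceeds 29 steps.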
